A study of Mus musculus with 161 samples.

Results

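The response of IL-4-pretreated macrophages to the M1 stimulus was compared with that of naive macrophages, 4 h after IFN-γ plus LPS were added to both. The comparison rests on 7 bulk RNA-seq libraries. Of these, 4 were labelled as 4 h into the change from M2 to M1 (M2->M1, called pretreated here) and 3 were labelled 4 h M1 (naive). The 7 were taken by their labels, with earlier results of these data known, from 145 bulk libraries of 48 conditions in a series of 161 samples. All cells were bone marrow-derived macrophages (BMDMs), which are grown from marrow progenitors, of C57BL/6J mice aged 6 to 10 weeks, and all were kept in medium with 20 ng/mL MCSF, the growth factor of macrophages. Naive cells received 25 ng/mL IFN-γ and 100 ng/mL LPS on day 7 of culture. Pretreated cells received 25 ng/mL IL-4 on day 7 for 24 h, were washed with PBS, and then received the same IFN-γ and LPS. The starting groups were 0 h M0, untreated cells of day 7, and 24 h M2, cells after 24 h of IL-4, with 3 libraries each. A further 2 groups of 3 libraries each were used: 4 h M2->M0, IL-4-treated cells washed and returned to plain medium, and 24 h M0, cells kept untreated for 24 h.

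Pretreated cells differed from naive cells in IL-4, in the wash and in 24 h more of culture, and the effects of these cannot be told apart at 4 h. No group that was held without IL-4 for 24 h and then given IFN-γ plus LPS was among the samples used here. The labels call the libraries of a group biological replicates without naming separate mice or cultures, so the spread within groups may be technical. Unless stated otherwise, the spread behind every p-value was pooled within groups over all 145 bulk libraries of 48 conditions, not taken from the compared groups alone.

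LPS, a component of the outer membrane of Gram-negative bacteria, is bound by CD14 and TLR4 and acts through MyD88 and TRIF on NF-κB and IRF3, which switch on cytokine, chemokine and IFN-β genes. IFN-γ acts through its receptor and the kinases JAK1 and JAK2, which lead to the induction of antimicrobial genes such as those of the guanylate-binding proteins. IL-4 acts through its receptor chain IL4RA and STAT6 on a separate set of genes, among them Arg1, which encodes the arginase that consumes the substrate of the inducible nitric oxide synthase Nos2.

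The libraries carried macrophage transcripts in both groups. Over the 7 libraries Cd68 ranged from 901 to 1460 FPKM (fragments per kilobase of transcript, scaled to the fragments mapped, which is a level per length), Emr1, which encodes F4/80, from 498 to 934, and Itgam from 235 to 334. Of 8 macrophage markers, 4 were lower in pretreated cells, namely Csf1r, Lyz2, Fcgr1 and Spi1, and none was at 0 in any library. The deposited values hold no read counts, so depth is unknown, and the FPKM of the 8307 genes summed to between 614726 and 649176 in naive and between 570594 and 608873 in pretreated libraries. Col1a1, a collagen gene of fibroblasts, split both groups: it was at 0.494 FPKM in naive replicate 1 and at 0.276 and 0.333 in pretreated replicates 1 and 2, against 4.94 to 10.2 in the other 4 libraries. Such a split ran through the series, with 66 of 145 libraries on the low side. Within the low-collagen and within the high-collagen libraries, 2063 of the 2074 genes called below (99.5%) had the same sign of difference in both sets, as had 6141 of all 8307 genes (73.9%). The 2074 were called on these same libraries, so the higher share follows in part from their choice. Pretreated replicates 1 and 2 were the third most alike of the 148 pairs of libraries of 1 condition in the series, with an SD over genes of their log2 difference of 0.156, against 0.335 to 0.366 between either of them and replicates 3 and 4. The methods describe 3 biological replicates for the conditions, while the labels give 4 here. The most alike of the 148 pairs was replicates 1 and 2 of 72 h unpolarized cells of the repolarization set (SD 0.130), also labelled with 4 libraries. The labels name no shared source, and whether the 4 libraries are 4 independent samples was not tested. With pretreated replicates 1 and 2 averaged as 1 library, 1761 genes passed in place of the 2074 below. Pretreated replicate 4 had been singled out in the choice of these libraries as unusual for IL-4 genes. Its median over 33 IL-4 effector genes lay 1.46 above the naive mean on the log2 scale, beside 1.44, 1.44 and 1.49 in replicates 1 to 3, so it did not stand apart by this measure.

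Promoter letters are shown for 5 genes. In the 4 h comparison, rises and falls mean higher or lower in pretreated than in naive cells, not changes over time. Retnla, Ccl17 and Pdcd1lg2 were among the 12 largest rises and hold a STAT6-type match. Saa3, a secreted acute-phase gene, was among the 12 largest falls. Socs1 had the most negative response difference of the named genes, as defined below. Both Saa3 and Socs1 hold an ISRE-type match, and both rose from the start in both arms. Each run covers the bases 170 to 61 before the RefSeq start site on the gene's own strand (build GRCm38.p6), with the match in capitals. The positions are chr16:48842439-48842548, plus strand for Retnla, chr8:94810283-94810392, plus strand for Ccl17, chr19:29410749-29410858, plus strand for Pdcd1lg2, chr7:46715737-46715846, minus strand for Saa3, and chr16:10785597-10785706, minus strand for Socs1.
Retnla: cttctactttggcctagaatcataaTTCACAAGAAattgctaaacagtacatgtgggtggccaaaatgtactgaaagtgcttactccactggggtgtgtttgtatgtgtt
Ccl17: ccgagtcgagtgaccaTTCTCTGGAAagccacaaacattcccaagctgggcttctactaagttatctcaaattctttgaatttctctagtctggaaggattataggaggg
Pdcd1lg2: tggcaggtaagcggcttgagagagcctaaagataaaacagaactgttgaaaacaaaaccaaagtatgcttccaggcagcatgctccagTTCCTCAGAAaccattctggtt
Saa3: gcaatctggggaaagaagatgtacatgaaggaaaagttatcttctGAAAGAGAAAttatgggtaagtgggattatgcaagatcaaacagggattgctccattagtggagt
Socs1: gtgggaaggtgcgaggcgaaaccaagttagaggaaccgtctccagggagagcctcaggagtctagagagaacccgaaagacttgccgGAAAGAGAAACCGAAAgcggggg

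These matches are descriptions of letters, not of binding. The STAT6-type letters, TTC and GAA with 4 bases of any kind between them, searched on both strands from 250 bases before to 50 after the start, were in 3 of the 9 windows available for the 12 largest rises (33.3%), in 2 of 12 windows of the largest falls (16.7%) and in 6.95% of all 32851 windows in the RefSeq table. They began 145, 154 and 82 bases before the start in Retnla, Ccl17 and Pdcd1lg2. The ISRE-type letters, GAAA and GAAA with 2 bases between them, a form bound by interferon-activated factors, were in 0 of the 9 windows, in 1 of the 12 (8.33%, Saa3, 125 bases before the start) and in 3.44% of all. Socs1 held 2 that overlap each other, 83 and 77 bases before the start. The κB-type letters, GGG and CC with 5 bases between them, were in 5 of the 9 and 5 of the 12 windows, beside 50.8% of all. No match shown overlaps a match to another motif searched.

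At 4 h, 2074 of 8307 genes differed between pretreated and naive cells (25.0%, limma with Benjamini-Hochberg adjusted p below 0.05), 909 higher (10.9%) and 1165 lower (14.0%) after IL-4. Most differences were small, with 1647 of the 2074 (79.4%) under 2-fold and 427 above it (5.14% of all genes) on the scale of log2(FPKM + 1), which understates the change of weakly expressed genes. In 13.1% of all genes every pretreated library lay above every naive one and in 17.7% below, and statements that groups did not overlap are read against these shares. The 12 largest rises and 12 largest falls were taken from called genes whose groups do not overlap, so that their separation is a condition of their choice. With each library scaled to the same upper quartile, 1133 were higher and 1068 lower, and with median centring 1190 and 1084, so which direction held more genes depended on the scaling. Without pretreated replicate 4, 2010 genes passed, of which 1856 had passed with it in the same direction.

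Many of these differences were present before IFN-γ plus LPS were added. The starting groups, which share no library with the 4 h groups, differed in 2694 genes (32.4%), and of the 2074 genes called at 4 h, 1064 had differed in the same direction, 86 in the opposite direction and 924 had not passed the test. All of the 12 largest rises and 10 of the 12 largest falls at 4 h had passed it in the same direction, beside 18.2% of all genes higher and 14.2% lower. A difference at 4 h can thus be one of starting level, of response, or of both, and the genes are described below with both values.

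**Figure D1:**
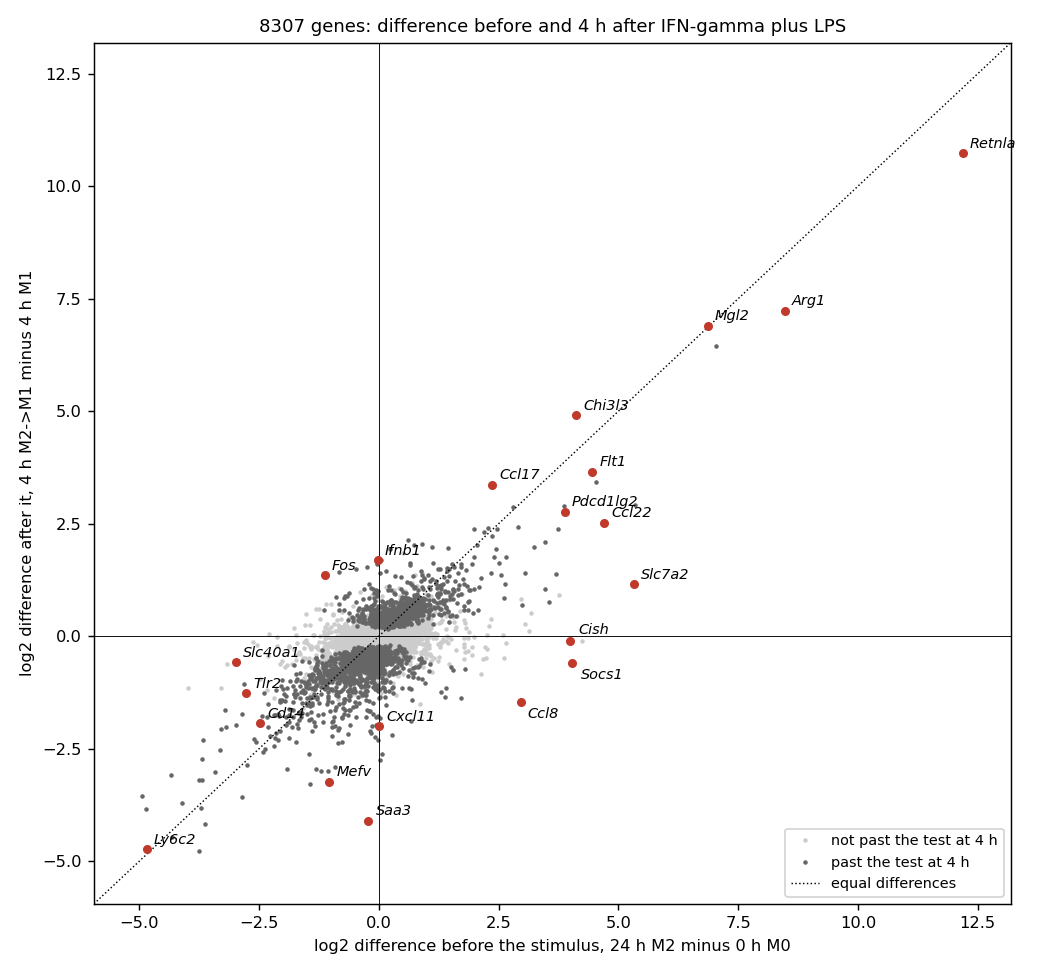
Each of 8307 genes is placed by its log2 difference between the starting groups (24 h M2 minus 0 h M0, horizontal) and by its log2 difference 4 h after IFN-γ plus LPS (pretreated minus naive, vertical); dark grey points passed the test at 4 h, red points are labelled genes, and the dotted line marks equal differences. Retnla, Arg1 and Mgl2 lie far up near the line at 10.74, 7.23 and 6.90, whereas Socs1 and Cish lie near 0 on the vertical axis although they differed by 4.04 and 3.99 at the start.

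Most IL-4 effector genes were still higher 4 h into the M1 stimulus. Of 33 measured IL-4 effector genes 24 were higher in pretreated cells, beside the 10.9% of all genes, 1 was lower and 8 did not pass the test, with a median log2 difference of 1.38 beside -0.01 over all genes. Retnla, which encodes the secreted protein RELMα, read 4834, 4883, 6687 and 6305 FPKM in pretreated replicates 1 to 4 and 1.68, 1.33 and 4.72 in naive replicates 1 to 3. The log2 difference was 10.74 (SE 0.62, limma adjusted p = 8.71e-29). Arg1, the arginase gene, read 852, 813, 1306 and 1174 FPKM after IL-4 and 3.13, 6.01 and 9.62 in naive cells. The group means differed 166-fold (7.23 ± 0.50 SE on the log2 scale, adjusted p = 2.4e-23). Mgl2, a macrophage galactose-type lectin, read 251, 232, 269 and 275 FPKM against 1.70, 0.754 and 1.11 (6.90 ± 0.27 SE, adjusted p = 1.56e-41).

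Chi3l3, which encodes the chitinase-like protein Ym1, read 1070.1, 1081, 1380.1 and 1289 FPKM in pretreated and 33.3, 47.4 and 36.5 in naive cells, a 30.8-fold difference of the means (log2 4.92, adjusted p = 1.72e-20). It fell by 4.31 on the log2 scale over 24 h in untreated culture (adjusted p = 3.62e-15), opposite to its rise after IL-4. Flt1, a VEGF receptor gene, read 36.7, 35.7, 44.4 and 46.6 FPKM against 1.90, 1.93 and 3.19 and rose by 3.66. Penk, the proenkephalin gene, read 35.3 to 46.7 FPKM against 3.45 to 7.05, and Fcrls, an Fc receptor-like gene, 49.7 to 65.8 against 4.17 to 9.40 (log2 2.91 and 2.88). The ribonuclease genes Ear11 and Ear2 differed by 6.44 and 2.42, with naive Ear11 at 0, 0.0908 and 1.14 FPKM. Chi3l3, Ear11 and Ear2 have near-identical relatives, so the split of reads between copies is uncertain.

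Ccl22 and Ccl17, which encode the ligands of CCR4 and attract T cells, were higher after IL-4, at unequal levels between libraries. Ccl22 read 1613, 1489, 350.0 and 395 FPKM in pretreated replicates 1 to 4 and 195, 93.1 and 123 in naive replicates 1 to 3 (log2 2.53 ± 0.52 SE, adjusted p = 6.35e-05). Ccl17 read 53.2, 50.6, 14.7 and 12.1 against 0.969, 1.91 and 2.33 (3.36 ± 0.42 SE, adjusted p = 1.65e-10). In both genes pretreated replicates 1 and 2, which were low in collagen, lay well above replicates 3 and 4. The log2 difference of Ccl22 was 2.98 within low-collagen and 1.78 within high-collagen libraries, and that of Ccl17 4.75 and 2.20. Itgax, which encodes CD11c, showed the same order, with 323, 297, 164 and 154 FPKM against 52.3, 38.2 and 41.1 (log2 2.33). The part of whatever separates these libraries in the size of the differences was not tested. Other effectors that rose and were chosen after their values were seen were the cell fusion genes Ocstamp (3.42) and Dcstamp (1.98), Fn1 (2.38), the fibronectin gene, and Clec7a (1.54), the β-glucan receptor Dectin-1.

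A single effector, Ch25h, went the other way. Ch25h, which makes 25-hydroxycholesterol and also responds to interferon, read 21.1, 18.3, 21.9 and 24.1 FPKM in pretreated and 90.0, 32.6 and 37.8 in naive cells (log2 -1.14, adjusted p = 0.0234). The groups did not overlap, but naive replicate 1 stood far above the other naive values, and without it the difference was -0.70 with an adjusted p of 0.265. The call was also lost without pretreated replicate 2 (adjusted p = 0.058). Without pretreated replicate 4 a second effector passed as lower, Fcgr2b, the inhibitory IgG receptor gene (-0.51 with it, adjusted p = 0.105, and -0.68 without it, adjusted p = 0.0345), chosen after its value was seen. Among the 8 effectors that did not pass were Mrc1, the mannose receptor (log2 0.93, adjusted p = 0.116), and Vegfa (-0.47, adjusted p = 0.337).

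**Figure D2:**
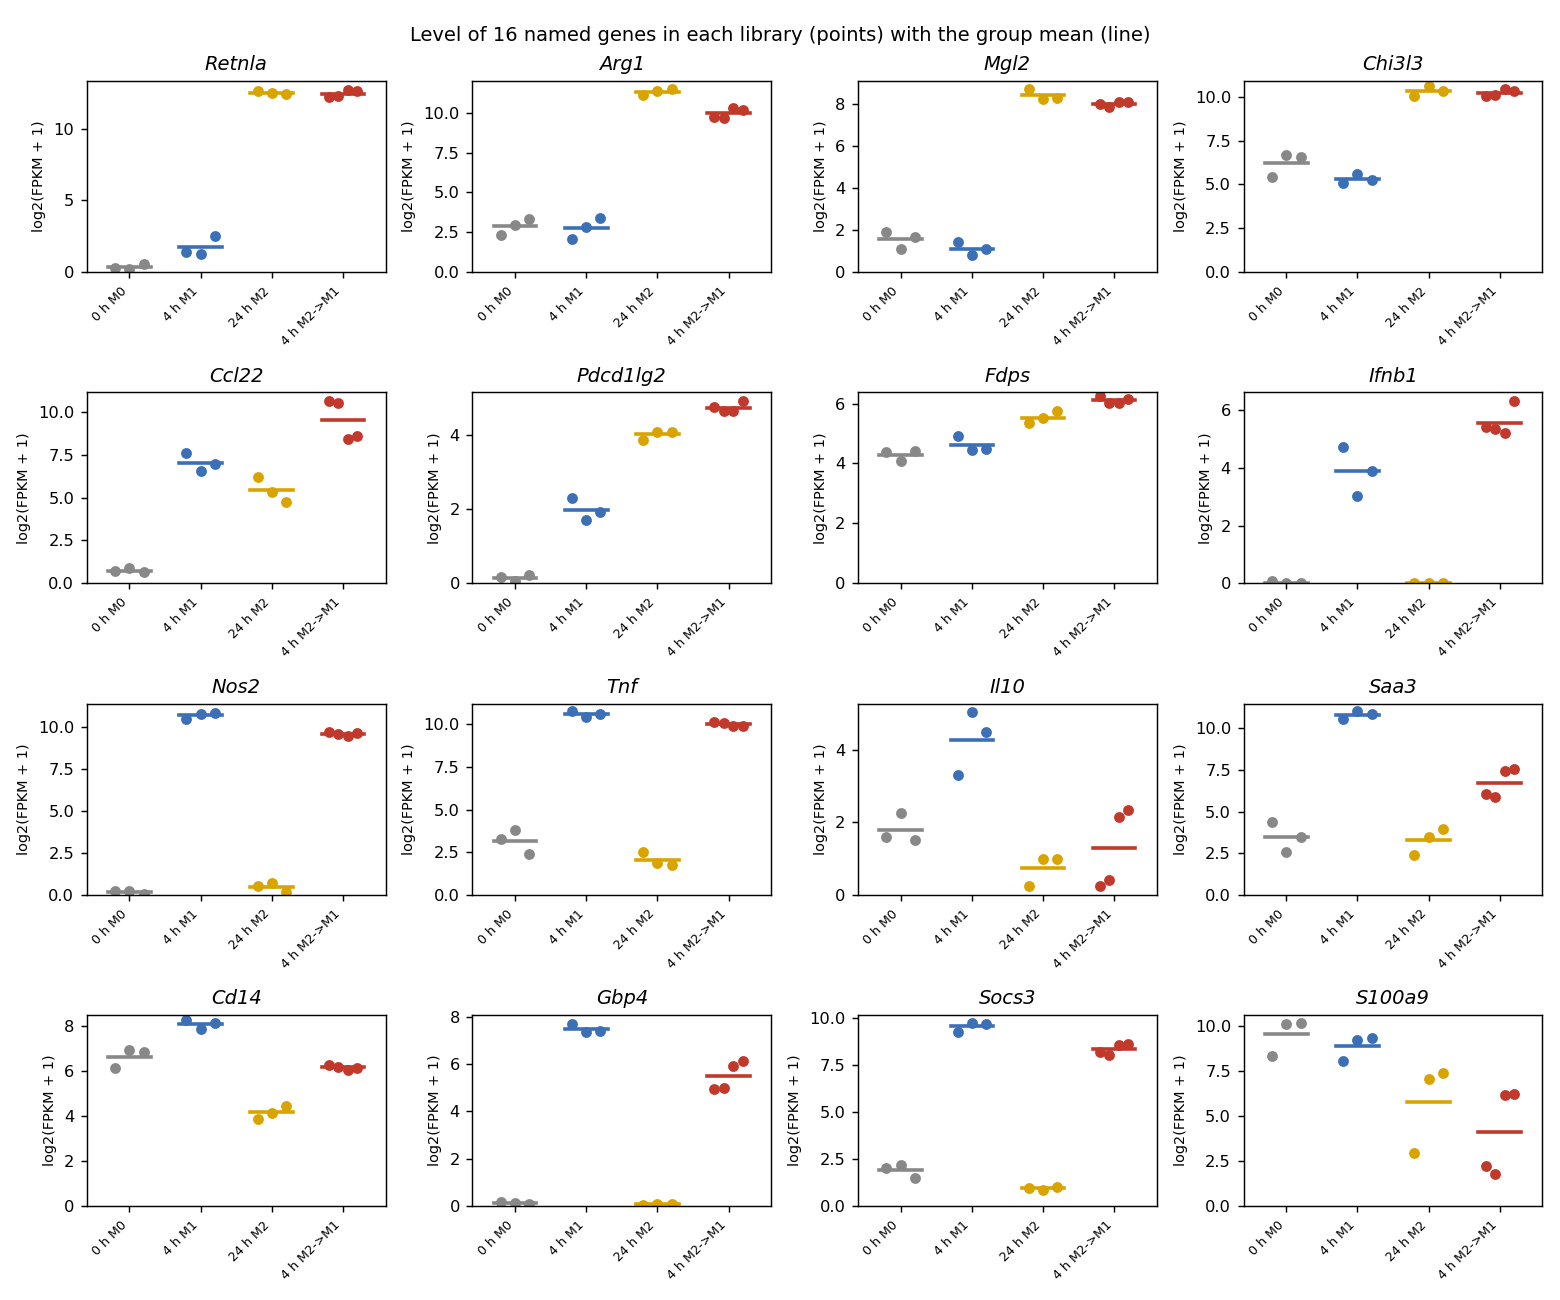
Points are single libraries of 0 h M0 (3), 4 h M1 (3), 24 h M2 (3) and 4 h M2->M1 (4) and short lines are group means, on the log2(FPKM + 1) scale, for 16 named genes. In M2->M1 libraries Retnla, Mgl2 and Chi3l3 lie near their 24 h M2 level and Arg1 somewhat below it, all far above the naive libraries, while Nos2 and Saa3 reach a lower level in M2->M1 than in M1, and Ifnb1 a higher one.

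Receptor and regulator genes of the IL-4 pathway were mixed. Of 25 measured 5 were higher and 6 lower (median -0.18), beside 10.9% and 14.0% of all genes. Il4ra, the receptor chain, read 55.1, 49.0, 67.9 and 78.3 FPKM in pretreated and 128, 225 and 219 in naive cells, without overlap (log2 -1.57 ± 0.26 SE, adjusted p = 5.88e-07). Both groups stood above their starting levels, which were 9.76 to 12.3 FPKM in 24 h M2 and 20.6 to 23.2 in 0 h M0. Stat6, the factor activated by the receptor, was slightly higher after IL-4, at 74.5, 69.5, 65.4 and 59.7 FPKM against 53.0, 54.9 and 56.8 (log2 0.28, adjusted p = 0.0143). Irf4, a transcription factor of the IL-4 response, read 9.31, 9.67, 4.29 and 3.30 FPKM against 1.35, 0.760 and 0.390 (1.98, adjusted p = 5.84e-05), and Egr2, an early target, 16.9, 16.1, 14.3 and 15.6 against 7.41, 8.26 and 6.04 (1.03, adjusted p = 0.022). Egr2 had stood at 71.3 to 102 FPKM in 24 h M2, so both groups lay below that level at 4 h. The call for Stat6 was lost without pretreated replicate 1 or naive replicate 1 (adjusted p = 0.0717 and 0.0581), and that for Egr2 without naive replicate 3 (adjusted p = 0.1). Cebpb, a factor used by both programmes, read 68.3, 49.0, 67.5 and 61.3 FPKM against 211, 221 and 209.8 (-1.79, adjusted p = 3.52e-06), and Ets2, another transcription factor, was lower too (-1.17). Others that passed, chosen after their values were seen, were Socs2 (0.75) and Rxra (0.87) upward and Il13ra1 (-0.94) and Jak3 (-0.87) downward. Pparg, a nuclear receptor tied to the M2 state, read 2.35 to 4.17 FPKM in pretreated and 1.60 to 2.94 in naive cells at 4 h, although it had been at 31.6 to 52.7 in 24 h M2 and 15.4 to 23.5 in 0 h M0 (log2 0.25, adjusted p = 0.65).

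Some genes that sense the stimulus were lower in pretreated cells. Of 34 receptors and adaptors for LPS and IFN-γ 10 were lower and 2 higher (median -0.17), beside 14.0% and 10.9% of all genes. Cd14, the LPS co-receptor, read 75.4, 71.2, 63.6 and 69.2 FPKM in pretreated and 303, 232 and 275 in naive cells, 3.87-fold apart by the means and without overlap (log2 -1.93 ± 0.25 SE, adjusted p = 7.9e-10). Before the stimulus it had been at 13.7, 16.6 and 20.9 FPKM in 24 h M2 and 68.0, 121 and 113 in 0 h M0, so the starting difference (-2.47) was no smaller. Tlr9, the receptor of CpG DNA, read 3.09, 2.83, 1.37 and 2.70 FPKM against 16.3, 12.6 and 13.6 (-2.14, adjusted p = 2.84e-10). Tlr2, the receptor of lipopeptides, read 37.8, 38.1, 59.9 and 40.8 against 72.9, 137 and 115 (-1.26, adjusted p = 0.0185), and lost its call without naive replicate 2 or 3 (adjusted p = 0.102 and 0.0702). Myd88, the shared adaptor, read 111, 111, 138 and 149 FPKM against 169, 183 and 202 (-0.54, adjusted p = 0.00333), and Irak2, a kinase downstream of it, was also lower (-0.99 on the log2 scale).

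Tlr4 itself stood at a mean of 13.2 FPKM in pretreated and 10.9 in naive cells (log2 0.25, adjusted p = 0.3), and its partner Ly96 had a difference of 0.19 (adjusted p = 0.48). The genes of both receptor chains for IFN-γ were slightly lower, Ifngr1 (-0.46) and Ifngr2 (-0.31), as were Ifnar2 (-0.39), Tyk2 (-0.39) and Ly86 (-0.92), all chosen after their values were seen. The 2 higher genes were Tlr13, a sensor of bacterial ribosomal RNA, at 15.7, 16.6, 19.2 and 17.7 FPKM against 10.5, 9.20 and 10.5 (0.72), and Cd180, an LPS-receptor homologue, at 181 to 247 against 127 to 139 (0.67). Jak1 did not pass the test (-0.26, adjusted p = 0.0815).

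Few of the transcription factors that carry these signals passed the test. Of 18 NF-κB, IRF and STAT genes 3 were lower and 1, Stat6, was higher (median -0.27), beside 14.0% and 10.9% of all genes, so both numbers lay near the background. Irf7, the amplifier of interferon genes, read 122, 114, 140.2 and 219 FPKM in pretreated and 267, 299 and 349 in naive cells (log2 -1.07, adjusted p = 2.79e-05), without overlap. Rela, the p65 subunit of NF-κB, differed by -0.37 and Stat5b by -0.47. The call for Rela was lost without pretreated replicate 2 or 4 or without any 1 naive library, with adjusted p between 0.0507 and 0.12. Nfkb1 read 353, 349, 376 and 339 FPKM against 499.9, 429 and 448 (-0.37, adjusted p = 0.116) and did not pass the test.

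Among immediate-early factors 8 of 17 were lower and 2 higher (median -0.44), beside 14.0% and 10.9% of all genes, the 2 being near the background. Nr4a1, an orphan nuclear receptor gene, read 0.252, 0.219, 0.519 and 0.766 FPKM in pretreated and 2.88, 5.93 and 6.04 in naive cells (log2 -2.01, adjusted p = 1.57e-05), Ier3 26.6, 24.5, 30.7 and 70.3 against 80.4, 104 and 100.0 (-1.42), and Klf2 0.180 to 1.85 against 2.53 to 3.43 (-1.17). Fos, a subunit of AP-1, went the other way at 62.3, 56.3, 94.5 and 94.2 FPKM against 27.0, 24.3 and 35.9 (1.35, adjusted p = 0.0168), as did Egr2, given above. The call for Fos was lost without naive replicate 2, with an adjusted p of 0.071, and that for Klf2 without pretreated replicate 2 (adjusted p = 0.0564).

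Cytokine genes split by member. Of 25 inflammatory cytokines 10 were lower, 2 higher and 13 did not pass the test (median -0.58), beside 14.0% and 10.9% of all genes. Il10, the anti-inflammatory cytokine, read 0.174, 0.328, 3.46 and 4.10 FPKM in pretreated replicates 1 to 4 and 8.79, 31.8 and 21.7 in naive replicates 1 to 3. The log2 difference was -2.99 (SE 0.47, adjusted p = 1.94e-07). The libraries low in collagen had the lowest value in both groups, and the difference was -2.97 within low-collagen and -2.52 within high-collagen libraries. Il1rn, the decoy ligand that blocks IL-1, read 577, 599.7, 567 and 676 FPKM against 2028, 2214 and 2479.9 (-1.89 ± 0.35 SE, adjusted p = 1.26e-05). Il1f9, which encodes IL-36γ, read 0.860, 0.976, 1.54 and 1.52 against 7.86, 12.1 and 11.7 (-2.37), and Tnfsf9, the ligand of 4-1BB, 7.01, 6.71, 13.0 and 7.80 against 30.3, 48.8 and 37.8 (-2.07), again without overlap.

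Ifnb1, the gene of IFN-β, was higher in pretreated cells. It read 41.7, 40.2, 36.5 and 78.5 FPKM after IL-4 and 25.3, 7.11 and 14.1 in naive cells, 3.18-fold apart by the means (log2 1.70 ± 0.22 SE, adjusted p = 6.49e-10). No pretreated library was as low as any naive one, and in both starting groups the gene was at or below 0.0444 FPKM. Tnfsf15, a TNF-family ligand, was higher in the fit (1.41, adjusted p = 5.66e-05), but read 154, 158, 47.0 and 43.3 FPKM against 44.0, 24.9 and 26.9, so that pretreated replicate 4 lay below naive replicate 1, and it did not pass with the spread of the compared libraries alone (adjusted p = 0.0769). Tnf itself read 1138, 1083, 963 and 958 FPKM in pretreated and 1743, 1371 and 1546 in naive cells. The groups did not overlap, but the difference of -0.58 did not pass the test (adjusted p = 0.388) and passed it with an adjusted p of 0.0165 only when the spread was taken from the libraries compared. Il1b (0.16, adjusted p = 0.901) and Il6 (-0.06, adjusted p = 0.951) did not pass it, nor did Il12b (-0.71, adjusted p = 0.28).

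Of 15 chemokines of the M1 response 1 was higher and 1 lower (median -0.22), beside 10.9% and 14.0% of all genes, and both numbers were no more than the background. Without pretreated replicate 4 a second passed as lower, Ccl12 (-1.50 with it, adjusted p = 0.097, and -1.99 without it, adjusted p = 0.0326), chosen after its value was seen. Cxcl11, a ligand of CXCR3 that is induced by interferons, read 20.8, 20.5, 25.9 and 41.1 FPKM in pretreated and 88.5, 123 and 113 in naive cells, without overlap (log2 -2.00 ± 0.45 SE, adjusted p = 0.000311), and its starting level was at or below 0.0284 FPKM in every library of both starting groups. Ccl9 read 3562, 3656, 3985 and 3500.1 FPKM against 2203, 1813 and 2230.5 (0.82, adjusted p = 0.0175), and lost its call without naive replicate 2 (adjusted p = 0.0844). The other CXCR3 ligands, Cxcl9 (-1.03, adjusted p = 0.135) and Cxcl10 (-0.81, adjusted p = 0.231), did not pass the test.

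Interferon-stimulated genes were lower where they differed. Of 49 measured 19 were lower and 0 higher, beside 14.0% and 10.9% of all genes, and 30 did not pass the test (median -0.48). Without pretreated replicate 4, 23 were lower and 0 higher. Before the stimulus 21 of the 49 had been lower and 2 higher in 24 h M2 than in 0 h M0 (median -0.49), beside 14.2% and 18.2% of all genes. Isg20, an exonuclease that degrades viral RNA, read 3.64, 2.99, 4.04 and 7.07 FPKM in pretreated and 17.4, 31.6 and 30.8 in naive cells (log2 -2.35 ± 0.21 SE, adjusted p = 5.84e-17). Ms4a4c, a membrane protein gene, read 8.13, 7.28, 13.6 and 15.1 against 52.8, 55.3 and 55.7 (-2.27, adjusted p = 1.49e-10). Neither overlapped between the groups. Oas2 and Oas3, sensors of double-stranded RNA, differed by -1.17 and -1.17, with Oas2 at 21.0, 20.4, 28.8 and 36.2 FPKM against 57.6, 61.3 and 60.0 and Oas3 at 23.3 to 33.3 against 59.8 to 70.2. Isg15 (-0.44, adjusted p = 0.333) and Mx1 (-0.39, adjusted p = 0.329) did not pass the test.

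Among the interferon-inducible GTPases, which act on vacuoles of intracellular microbes, 7 of 18 were lower and 0 higher (median -0.58), beside 14.0% and 10.9% of all genes. Gbp4 went to 30.0, 30.3, 60.0 and 69.4 FPKM in pretreated and 205, 162 and 167 in naive cells from no more than 0.127 in any starting library (log2 -1.98 ± 0.24 SE, adjusted p = 3.12e-11), without overlap. Tgtp1, also near 0 at the start with at most 0.0221 FPKM, read 4.85, 4.40, 7.02 and 5.82 against 24.2, 18.9 and 20.1 (-1.77). Gbp9 read 72.6, 70.2, 133 and 133 against 272, 218 and 244 (-1.31) and Gbp8 2.68 to 5.52 against 7.78 to 9.67 (-1.05). Gbp9 was above 0 before the stimulus, at 2.27 to 3.26 FPKM in 0 h M0 and 0.741 to 1.23 in 24 h M2. These families hold near-identical copies, and the counts of single members are uncertain. Gbp2 (-0.01, adjusted p = 0.99) and Igtp (-0.52, adjusted p = 0.15) did not pass the test.

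Of 39 measured M1 effector genes 20 were lower, 4 higher and 15 did not pass the test (median -0.63), beside 14.0% and 10.9% of all genes, so the 4 lay near the background. Nos2, the inducible nitric oxide synthase, read 810.4, 745, 686 and 783 FPKM in pretreated and 1424, 1719 and 1803 in naive cells, 2.18-fold apart by the means and without overlap. The log2 difference was -1.12 (SE 0.34, limma adjusted p = 0.00885), and the call was lost when 0.1 in place of 1 FPKM was added before the log (adjusted p = 0.184). Both groups had started at or below 0.606 FPKM. Saa3, an acute-phase protein gene, read 66.0, 56.7, 173 and 190.0 FPKM against 1517, 2128 and 1868, 15.1-fold apart, with a difference of -4.10 (SE 0.57, adjusted p = 5.68e-09). Its starting levels were 4.28 to 14.2 FPKM in 24 h M2 and 4.94 to 19.8 in 0 h M0 and did not differ past the test (-0.21, adjusted p = 0.823).

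Mefv, which encodes the inflammasome sensor pyrin, read 3.03, 2.70, 4.09 and 3.03 FPKM in pretreated and 41.7, 39.7 and 33.7 in naive cells (log2 -3.23, adjusted p = 6.73e-20). Lcn2, which sequesters bacterial iron carriers, read 16.7, 16.0, 18.0 and 27.5 against 138, 194 and 221 (-3.18), and Hp, the haptoglobin gene, 0.641, 0.490, 1.20 and 1.56 against 25.3, 27.1 and 25.3 (-3.80). Lcn2 and Hp are also made by neutrophil precursors, and both fell in untreated culture over 24 h, by 3.60 and 3.18. Pdpn, which encodes podoplanin, read 4.88, 4.33, 8.50 and 10.4 FPKM against 22.2, 90.6 and 93.8 (-2.94). Upward there were 4 effectors. Slc7a2, an arginine transporter that IL-4 induces as well, read 768, 789, 676 and 672 FPKM against 390.4, 289 and 303 (1.16, adjusted p = 0.00616). Ptx3, a soluble pattern receptor, read 42.3, 46.5, 13.3 and 9.29 against 6.98, 7.75 and 8.09 (1.45), with a difference of 2.51 within low-collagen and 0.44 within high-collagen libraries, and did not pass with the spread of the compared libraries alone (adjusted p = 0.0794). The other 2 were Pla2g4a, a phospholipase (0.47), and F3, the tissue factor gene (1.01, adjusted p = 0.0304), which was chosen after its value was seen. Without pretreated replicate 4 only 2 effectors were higher, as F3 (0.98, adjusted p = 0.0546) and Pla2g4a (0.42, adjusted p = 0.079) lost their calls. Pla2g4a lost its call without pretreated replicate 3 or 4 or without any 1 naive library (adjusted p between 0.0643 and 0.104).

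Of 33 measured genes of negative feedback 12 were lower, 1 was higher and 20 did not pass the test (median -0.59), beside 14.0% and 10.9% of all genes. Dusp2, a MAP kinase phosphatase, read 15.7, 12.2, 15.4 and 9.23 FPKM in pretreated and 54.2, 69.7 and 52.3 in naive cells (log2 -2.10 ± 0.31 SE, adjusted p = 3.87e-08). Socs3, an inhibitor of JAK signalling, read 286, 259, 381 and 391 against 604, 832 and 816 (-1.19 ± 0.28 SE, adjusted p = 0.000566), and Irak3, an inhibitory kinase homologue, 15.8, 16.8, 17.5 and 15.5 against 43.7, 31.1 and 36.7 (-1.12). None of the 3 overlapped between groups, where 17.7% of all genes lay lower without overlap. The gene that rose was Pdcd1lg2, which encodes the PD-1 ligand PD-L2 and is a known IL-4 target, at 26.2, 24.3, 24.3 and 29.3 FPKM against 3.91, 2.29 and 2.83 (2.77 ± 0.18 SE, adjusted p = 1.01e-25). Cd274, which encodes PD-L1, had a difference of -0.14 (adjusted p = 0.762).

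Cholesterol synthesis genes were higher after IL-4. Of 22 measured 17 were higher and 0 lower (median 0.83), beside 10.9% and 14.0% of all genes, and at the start 21 of the 22 had been higher in 24 h M2, beside 18.2% of all. Fdps, which makes farnesyl pyrophosphate, read 75.9, 64.1, 63.5 and 70.6 FPKM in pretreated and 28.9, 20.9 and 21.4 in naive cells, without overlap (log2 1.50 ± 0.21 SE, adjusted p = 7.01e-09). Sc4mol, a sterol oxidase gene, read 79.3 to 90.2 against 25.0 to 46.5 (1.36) and Idi1 42.6, 50.5, 36.6 and 43.2 against 32.6, 11.4 and 12.1 (1.32). Sc4mol also rose over 24 h in untreated culture, by 0.63 (adjusted p = 0.0173), and the median of the list there was 0.37. Of 11 targets of LXR, the receptor of oxysterols, 4 were lower and 1 higher (median -0.39), beside 14.0% and 10.9% of all genes. Abca1, which exports cholesterol, read 1.90, 3.24, 5.19 and 3.30 FPKM against 11.9, 15.2 and 13.2 (-1.76), Apoe, the lipoprotein gene, 3684, 3610.1, 4789 and 4466 against 9948, 11479 and 13532 (-1.49), and Mylip, which degrades the LDL receptor, 1.38, 1.69, 1.09 and 0.830 against 18.0, 5.70 and 5.84 (-2.10). The fourth was Abcg1 (-0.65), chosen after its value was seen, and Scd2, a desaturase, was the one that rose (0.69), though not without pretreated replicate 2 or naive replicate 3 (adjusted p = 0.0587 and 0.0638).

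Of 19 genes of glycolysis and glucose uptake 7 were lower, 0 were higher and 12 did not pass the test (median -0.40), beside 14.0% and 10.9% of all genes. Of 31 genes listed for the TCA cycle or the respiratory chain, 19 were higher, 0 were lower and 12 did not pass (median 0.41). Most encode mitochondrial proteins, but Aco1, Idh1 and Mdh1 encode cytosolic enzymes. Pfkfb3, which makes the activator of phosphofructokinase, read 7.27, 7.92, 9.34 and 8.16 FPKM in pretreated and 23.6, 59.6 and 46.0 in naive cells (log2 -2.17 ± 0.20 SE, adjusted p = 9.66e-16). Slc16a3, the lactate exporter, read 23.4, 20.5, 38.0 and 39.8 against 116, 119.9 and 120.1 (-1.99), Pfkl, a phosphofructokinase, 17.1 against 51.2 by the means (-1.58) and Hk1, a hexokinase, 19.1, 19.2, 28.6 and 25.8 against 47.0, 74.7 and 79.1 (-1.48). None of the 4 overlapped between groups, where 17.7% of all genes lay lower without overlap. In the TCA cycle and respiratory chain list the differences were small, such as 0.65 for Mdh2, a malate dehydrogenase at 179, 169, 197 and 176 FPKM against 94.7, 125 and 126, and 0.62 for Fh1, the fumarase at 26.8, 25.3, 41.0 and 25.8 against 16.9, 19.6 and 19.5. Aco1, a cytosolic aconitase that also binds RNA, differed by 0.81 and Sdhc by 0.56, with overlap in Sdhc, whose call was lost without pretreated replicate 1, 3 or 4 or naive replicate 1 or 3 (adjusted p between 0.0631 and 0.197). At the start 22 of the 31 had been higher and 0 lower, beside 18.2% and 14.2% of all genes. Without pretreated replicate 4, 16 of the 31 were higher at 4 h and 0 lower.

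**Figure D3:**
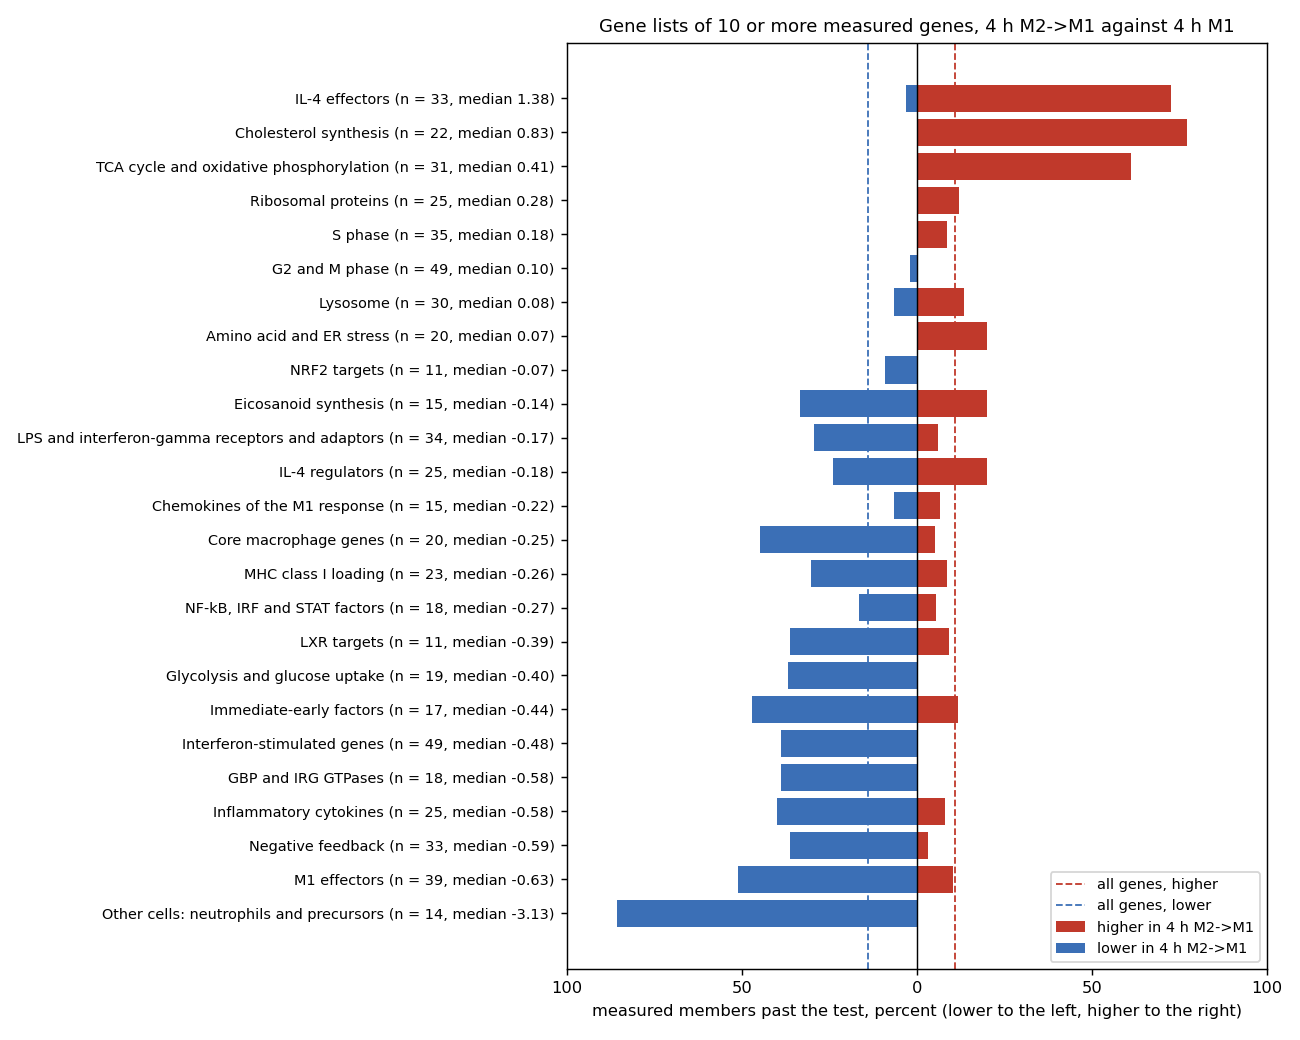
Bars give the percent of the measured genes of each list of 10 or more that passed the test upward and downward in pretreated against naive cells at 4 h. Over all 8307 genes 10.9% were higher and 14.0% lower. IL-4 effectors, cholesterol synthesis and TCA cycle genes stand out upward, and neutrophil genes downward. M1 effectors (20 of 39), immediate-early factors (8 of 17) and core macrophage genes (9 of 20) were lower in like shares.

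None of 6 measured MHC class II genes passed the test by limma in either direction (median 0.08; for Cd74, 0.48 with adjusted p = 0.32). Of 23 genes of MHC class I and its peptide loading 7 were lower and 2 higher (median -0.26), beside 14.0% and 10.9% of all genes, the 2 being near the background. H2-Q7 read 2.24 to 3.79 FPKM against 9.08 to 14.0 (-1.66) and H2-Q6 1.20 to 4.52 against 4.80 to 5.77 (-1.09), 2 class I genes so alike that their reads may be shared. The higher ones, Calr at 962, 924, 1240.2 and 1037 FPKM against 458, 549 and 739 (0.86) and Pdia3 (0.77), are chaperones of the endoplasmic reticulum that serve other proteins too. Of 20 genes of amino acid and endoplasmic reticulum stress 4 were also higher and 0 lower, beside 10.9% and 14.0% of all genes, with Sdf2l1, a chaperone partner, at 86.3, 80.1, 121 and 107 FPKM against 29.4, 50.5 and 46.0 (1.23), Hsp90b1 at 0.63, Atf5 at 0.69 and Hsph1 at 0.48. Atf5 lost its call without pretreated replicate 1 or naive replicate 3 (adjusted p = 0.0566 and 0.0693), and Hsph1 without pretreated replicate 3 or naive replicate 1 or 2 (0.368, 0.168 and 0.156).

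Of 15 eicosanoid genes 3 were higher and 5 lower, beside 10.9% and 14.0% of all genes. Ptges, which makes prostaglandin E2, read 8.24, 9.30, 15.5 and 13.6 FPKM in pretreated and 48.1, 63.2 and 50.5 in naive cells (log2 -2.15 ± 0.29 SE, adjusted p = 1.84e-09), from at most 1.77 FPKM in any starting library. Hpgds, which makes prostaglandin D2, was lower at 5.85 to 16.5 FPKM against 19.0 to 28.4 (-1.28), and Alox5ap, needed for leukotriene synthesis, at 68.7 to 121 against 161 to 259 (-1.24). Ptgs1, the constitutive cyclooxygenase, was higher at 25.0, 23.5, 24.9 and 19.8 FPKM against 9.32, 11.0 and 10.1 (1.12), whereas the inducible Ptgs2 did not pass the test (-0.03, adjusted p = 0.976).

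Of 20 genes that most macrophages express 9 were lower and 1 higher (median -0.25), beside 14.0% and 10.9% of all genes. Fcgr1, the high-affinity IgG receptor, read 12.5, 11.8, 48.2 and 70.9 FPKM in pretreated and 112, 146 and 171 in naive cells (log2 -2.34 ± 0.42 SE, adjusted p = 4.31e-06), and was low where collagen was low in both groups. Lyz2, the lysozyme gene, read 3012, 2623, 2549 and 2709 against 8248, 7521 and 6883 (-1.47) and Aif1, which encodes IBA1, 5.86, 5.29, 8.78 and 8.31 against 32.8, 28.9 and 29.0 (-1.98). Itgb2, an integrin chain, was the one that rose, at 895, 822, 723 and 648 against 485, 453 and 493 (0.68). Among lysosome genes 4 of 30 were higher and 2 lower, which is near or below the background, the first including the proton pump genes Atp6v0a1 (0.82) and Atp6v1b2 (0.59) and the second the cathepsins Ctsc (-1.11) and Ctsh (-0.99). In the remaining lists the shares were near or below the background: 3 of 35 of S phase upward (Rfc4, Fen1 and Dut, 0.64, 0.53 and 0.45), 1 of 49 of G2 and M phase downward (Pttg1, -0.48), 3 of 25 ribosomal proteins upward (Rps18, Rps3 and Rpl4, 0.53, 0.37 and 0.22) and 1 of 11 NRF2 targets downward, the catalase gene Cat (-0.64). Of these, only Cat kept its call without each single library in turn. Rfc4 lost it without naive replicate 3, Fen1 without any 1 library other than pretreated replicate 4, Dut without pretreated replicate 3 or 4 or naive replicate 1 or 2, and Pttg1 without pretreated replicate 1 or 2 or naive replicate 2 or 3. Rps18 lost it without pretreated replicate 4 or naive replicate 1 or 3, Rps3 without pretreated replicate 3 or naive replicate 1, and Rpl4 without pretreated replicate 1, 2 or 3 or naive replicate 1 or 2, with adjusted p between 0.0559 and 0.264 over all of these.

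Neutrophil and precursor genes were lower in pretreated libraries. Of 14 measured of a list of 18, 12 were lower and 0 higher (median -3.13), beside 14.0% and 10.9% of all genes, and their summed level was 881 to 1717 FPKM in naive and 316 to 379 in pretreated libraries. Of the 14, 5 were under 1 FPKM in every pretreated library and 0 in every naive one. In bulk RNA fewer cells of a type and less RNA per cell cannot be told apart. S100a9, a calcium-binding protein of neutrophils, read 3.65, 2.36, 69.5 and 71.7 FPKM in pretreated and 264, 588 and 623 in naive cells (log2 -4.77 ± 1.01 SE, adjusted p = 0.000109). S100a8, its partner, read 23.3, 26.0, 58.9 and 97.1 against 273, 542 and 435 (-3.18), and Ngp, a granule protein gene, 0.682, 0.769, 8.92 and 14.1 against 51.9, 141 and 136 (-4.45). Camp, which encodes the antimicrobial peptide CRAMP, read 0.517, 0, 4.03 and 3.23 against 19.8, 36.8 and 36.6 (-3.70). In these 4 genes the low-collagen libraries were the lowest in each group. Prtn3, which encodes proteinase 3, was listed at 0 in pretreated replicates 1 to 3 and at 0.591 in replicate 4, against 14.7, 17.7 and 12.7 FPKM in naive cells.

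Most of these genes also fell in culture without IL-4. Between 0 h M0 and 24 h M0, 11 of the 14 fell and 0 rose (median -3.71), beside 1.01% and 0.626% of all 8307 genes. Of the 12 largest falls at 4 h, 8 fell in that comparison, among them the monocyte gene Ly6c2, at 0.239, 0.107, 0.449 and 1.72 FPKM in pretreated and 45.5, 38.7 and 35.0 in naive cells (-4.73 at 4 h and -4.60 in untreated culture), and Plac8 at 0.436, 0.182, 1.98 and 3.83 against 35.0, 43.4 and 39.2 (-4.17 and -3.30). Ly6c2 has near-identical relatives. Of the 12 largest rises none rose in untreated culture. Of all genes called at 4 h, 40 of 1165 lower ones fell and 18 of 909 higher ones rose there. Saa3 (-0.76, adjusted p = 0.654) and Il10 (-0.51, adjusted p = 0.745) did not pass the test there. The culture comparison held 136 calls (1.64%), and 45 without 24 h M0 replicate 1, 56 without 24 h M0 replicate 2, 90 without 0 h M0 replicate 1 and 69 without 0 h M0 replicate 3.

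Markers of other cells were sparse. Among megakaryocyte genes 2 of 3 were lower, beside 14.0% of all genes. These were Itga2b at 0.253, 0.166, 1.46 and 2.41 FPKM against 12.6, 19.0 and 21.0 (-3.28) and Ppbp at 4.37, 5.32, 5.87 and 6.85 against 46.4, 55.6 and 52.1 (-3.00). The third, Pf4, did not pass the test, and the summed level of the 3 was 449 to 562 FPKM in pretreated and 448 to 686 in naive libraries. The B cell gene Ighm was lower at 4.08, 2.96, 10.2 and 8.11 FPKM against 19.9, 23.4 and 23.5 (-1.79), and the eosinophil granule gene Prg2 at 0.728, 1.25, 4.63 and 10.5 against 13.7, 32.1 and 28.0 (-2.60). The other eosinophil gene measured, Ccr3, did not pass the test, and the median of the 2 was -0.99. With median centring Ccr3 passed as higher. None of 4 fibroblast, 1 dendritic cell and 2 endothelial genes measured passed the test by limma in either direction, and none of the T and NK cell, erythroid or mast cell genes was among the 8307. The part of these cells in other differences was not tested.

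The change over the 4 h was then compared between the arms, as (4 h M2->M1 minus 24 h M2) minus (4 h M1 minus 0 h M0). In this response difference 843 genes passed the test, 281 with a more positive change in pretreated cells (3.38%) and 562 with a more negative one (6.77%). With upper-quartile scaling the numbers were 446 and 409 and with median centring 393 and 489, as the median of all genes moved from -0.06 to 0.04 and to 0.01, so the excess of negative ones depended on the scaling. Without pretreated replicate 4 they were 307 and 543 (3.70% and 6.54%). The contrast shares its 4 h libraries with the comparison above and its starting libraries with the start comparison, whose difference it subtracts. Its values are given beside the levels and not as separate evidence. The pretreated change also spans the wash and 4 h without IL-4, which the naive change does not. The part of these in a response difference was not tested.

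Of the 8 most negative genes, 7 had passed the test as higher in 24 h M2 than in 0 h M0 before the stimulus, and Saa3 had not. Over all genes 18.2% had. A higher start makes the response difference more negative by its form, so this count follows in part from the choice of genes. Socs1, the feedback inhibitor of IFN-γ and IL-4 signalling, went from 39.2, 31.8 and 24.6 FPKM in 24 h M2 to 235, 205, 352 and 439 in pretreated cells, and from 0.503, 1.61 and 0.937 in 0 h M0 to 359, 497 and 490.4 in naive cells. The levels at 4 h overlapped (log2 -0.59, adjusted p = 0.229), while the response difference was -4.63 (SE 0.52, adjusted p = 2.23e-11). Cish, a related inhibitor, went from 22.9, 13.1 and 14.0 to 42.3, 36.0, 33.7 and 45.1 FPKM and from 0.173, 0.0372 and 0.0374 to 28.1, 61.1 and 42.4 (-0.10 at 4 h, response difference -4.08, adjusted p = 2.53e-05). Slc7a2, given above, went from 111 to 124 FPKM in 24 h M2 and 1.81 to 2.31 in 0 h M0, and had a response difference of -4.17. Ccl7 and Ccl8, monocyte-attracting chemokines, started at 100.5 to 236 and 4.12 to 19.9 FPKM in 24 h M2 and 17.0 to 48.3 and 0.0768 to 0.944 in 0 h M0, and overlapped at 4 h (response differences -3.08 and -4.41). Ccl8 lost its call in 7 of the 13 fits that left out 1 library, with adjusted p up to 0.074. Tarm1, an activating receptor gene, had a response difference of -2.98.

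In 2 of the 8, Saa3 and Adora2b, the level at 4 h was lower after IL-4. Saa3 had a response difference of -3.88 (adjusted p = 0.000372) with like starting levels. Adora2b, an adenosine receptor gene, went from 4.69, 5.83 and 6.65 FPKM in 24 h M2 to 6.54, 6.42, 12.3 and 9.43 and from 1.16, 0.892 and 1.08 in 0 h M0 to 19.9, 27.6 and 22.8 (-1.37 at 4 h, response difference -3.08). In 4 h M2->M0, without the stimulus, Adora2b read 8.36, 10.4 and 8.97 FPKM. Pretreated cells did not differ from these past the test by limma (-0.12, adjusted p = 0.808). Of the IL-4 effectors 10 of 33 had a more negative change and 0 a more positive one (median -0.59, beside -0.06 over all genes, and beside 6.77% and 3.38% of all genes called), for example Pdcd1lg2 (-1.11, adjusted p = 0.00122) and Penk (-0.96, adjusted p = 0.0195). Set against washed cells without the stimulus instead, 12 of the 33 were higher in pretreated cells and 4 lower (median 0.29). Over all genes 29.9% were higher and 26.8% lower in that contrast. Retnla (-1.45, adjusted p = 0.38), Arg1 (-1.24, 0.342) and Mgl2 (0.03, 0.986) did not pass the test. Of the GTPases 5 of 18 had a more negative change, Gbp4 (-1.92) and Tgtp1 (-1.76) among them, and of the interferon-stimulated genes 3 of 49 with 1 more positive (median 0.05), the 3 and the 1 being near or below the 6.77% and 3.38% of all genes.

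Of the 8 most positive genes, 7 had passed the test as lower in 24 h M2 than in 0 h M0 before the stimulus, and Fos had not (-1.12, adjusted p = 0.0599). Over all genes 14.2% had. A lower start makes the response difference more positive by its form, so this count too follows in part from the choice of genes. Slc40a1, which encodes the iron exporter ferroportin, was at 2.31, 3.49 and 2.64 FPKM in 24 h M2 and 31.1, 32.3 and 23.8 in 0 h M0, and at 1.10, 1.12, 1.59 and 1.48 and 2.11, 2.91 and 2.39 at 4 h (-0.58, adjusted p = 0.0506; response difference 2.40, adjusted p = 3.57e-08). Maf, a transcription factor, was at 4.23, 6.44 and 6.78 FPKM against 40.0, 28.2 and 19.8 at the start and at 23.4, 27.0, 32.5 and 42.2 against 53.0, 28.9 and 29.0 at 4 h, where the groups overlapped (response difference 1.91). Ccr2, a chemokine receptor, Lpar6, a lysophosphatidic acid receptor, Sema4a, a semaphorin, and Vcan, a matrix proteoglycan, had response differences of 1.97, 2.01, 1.91 and 1.80, and Fam107b of 1.79. Without 24 h M2 replicate 3 the call for Lpar6 was lost (adjusted p = 0.0592), without 0 h M0 replicate 1 that for Vcan (1.28, adjusted p = 0.0722), and in 6 of the 13 fits without 1 library that for Sema4a (adjusted p up to 0.107). Fos had one of 2.48 (adjusted p = 0.00534), but its 0 h M0 libraries read 116, 469 and 34.3 FPKM, and without 0 h M0 replicate 2 the value was 1.52 with an adjusted p of 0.128. With the spread of the compared libraries alone, Fos, Ccr2, Sema4a and Vcan did not pass the test by limma (adjusted p = 0.107, 0.0513, 0.0869 and 0.0878). Ifnb1 differed in response by 1.72 (adjusted p = 4.33e-05), from libraries listed at or near 0 in both starting groups.

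**Figure D4:**
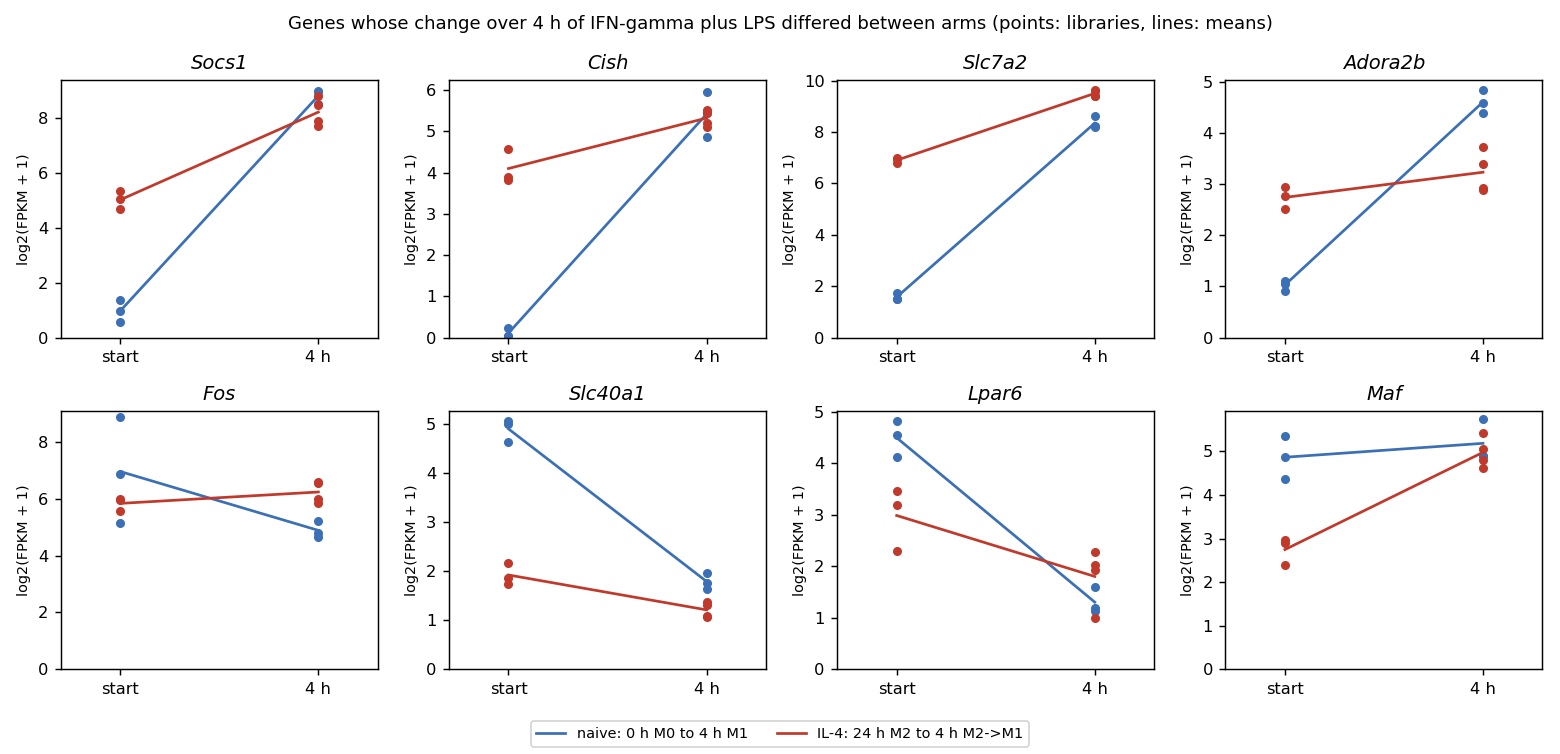
Points are libraries and lines join group means on the log2(FPKM + 1) scale, from the starting group (0 h M0 for naive, 24 h M2 for pretreated) to 4 h of IFN-γ plus LPS, for 8 genes whose change differed between the arms. Socs1, Cish and Slc7a2 start higher after IL-4 by 4.04, 3.99 and 5.32 and differ less at 4 h; Slc40a1, Maf and Lpar6 start lower.

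The same pretreated libraries were set against 4 h M2->M0, IL-4-treated cells that had the wash and the same time without the M1 stimulus. In naive cells 5228 genes (62.9%) differed between 4 h M1 and 0 h M0. That contrast has no untreated group at 4 h, so it also holds 4 h of culture, unlike the one with washed cells. In the contrast with washed cells 4705 genes passed (56.6%), 2481 higher and 2224 lower with the stimulus; with upper-quartile scaling the median of all genes moved from 0.03 to -0.28 and the numbers to 1627 and 3948, so changes are read relative to that shift. Chemokines of the M1 response were higher in 15 of 15, interferon-stimulated genes in 49 of 49 and GTPases in 18 of 18, beside 29.9% of all genes, with medians of 5.44, 4.20 and 6.01. Nos2 was at 810.4, 745, 686 and 783 FPKM with the stimulus and at 0.0257, 0.0851 and 0.0249 without it (9.50). Cell cycle genes went the other way, with 30 of 35 genes of S phase and 36 of 49 of G2 and M phase lower with the stimulus (medians -1.23 and -1.06), beside 26.8% of all. Of the 33 IL-4 effectors 12 were higher with the stimulus and 4 lower (median 0.29). Retnla was at 5494, 4214 and 4181 FPKM in the 3 washed libraries (0.29, adjusted p = 0.717), Arg1 at 972, 1267 and 1316 (-0.21, adjusted p = 0.75) and Mgl2 at 224, 207 and 219 (0.24, adjusted p = 0.472), and none of these passed the test. Ccl22 was at 71.9, 25.9 and 20.6 FPKM without the stimulus, so that its level at 4 h was 4.45 higher with it, and Pdcd1lg2 at 0.959, 1.44 and 1.17 (3.63). Pparg was at 15.9, 25.6 and 24.0 FPKM without the stimulus and lower with it (-2.50, adjusted p = 4.38e-10).

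At other times the comparison could be made in other libraries, 3 in each group at 1, 2, 6, 12 and 24 h. At these times 37.3%, 32.5%, 18.6%, 22.2% and 18.9% of the 8307 genes passed the test. Of the 909 genes higher at 4 h, 61.1%, 66.4%, 57.8%, 42.4% and 24.1% were also higher, beside 19.9%, 17.8%, 8.92%, 12.8% and 11.5% of all genes. Of the 1165 lower genes, 53.8%, 58.6%, 52.2%, 30.6% and 13.8% were also lower, beside 17.3%, 14.6%, 9.64%, 9.39% and 7.43% of all. Of the 12 largest rises 12, 12, 12, 11 and 11 were higher at these times, and of the 12 largest falls 12, 12, 12, 7 and 6 were lower.

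The courses of single genes differed. Retnla remained higher after IL-4 at every time, by 12.53 on the log2 scale at 1 h and 10.89 at 24 h. Arg1 was higher by 7.85 at 1 h, 6.67 at 2 h and 5.85 at 6 h, with 1.25 at 12 h (adjusted p = 0.0817) and 0.76 at 24 h (adjusted p = 0.35), when naive cells read 390.0 ± 118 FPKM (SD, n = 3). Ccl22 was higher by 4.79, 4.12, 2.08, 2.35 and 2.88. Nos2 was lower at 2 h (-1.63, adjusted p = 0.000176, with overlapping libraries) and higher at 24 h (0.98, adjusted p = 0.0459). Its differences of -0.10, -0.79 and -0.03 at the other hours did not pass the test (adjusted p = 0.852, 0.118 and 0.967). Il10 was lower at 1, 2 and 6 h (-1.33, -2.70 and -1.90), with -0.82 at 12 h (adjusted p = 0.252) and 0.17 at 24 h (adjusted p = 0.858). Ifnb1 was lower at 2 h (-1.15, adjusted p = 4.12e-05) and higher at 6, 12 and 24 h (1.21, 1.55 and 1.08), opposite in sign at 2 h to its difference at 4 h. No test was made of differences between times.

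**Figure D5:**
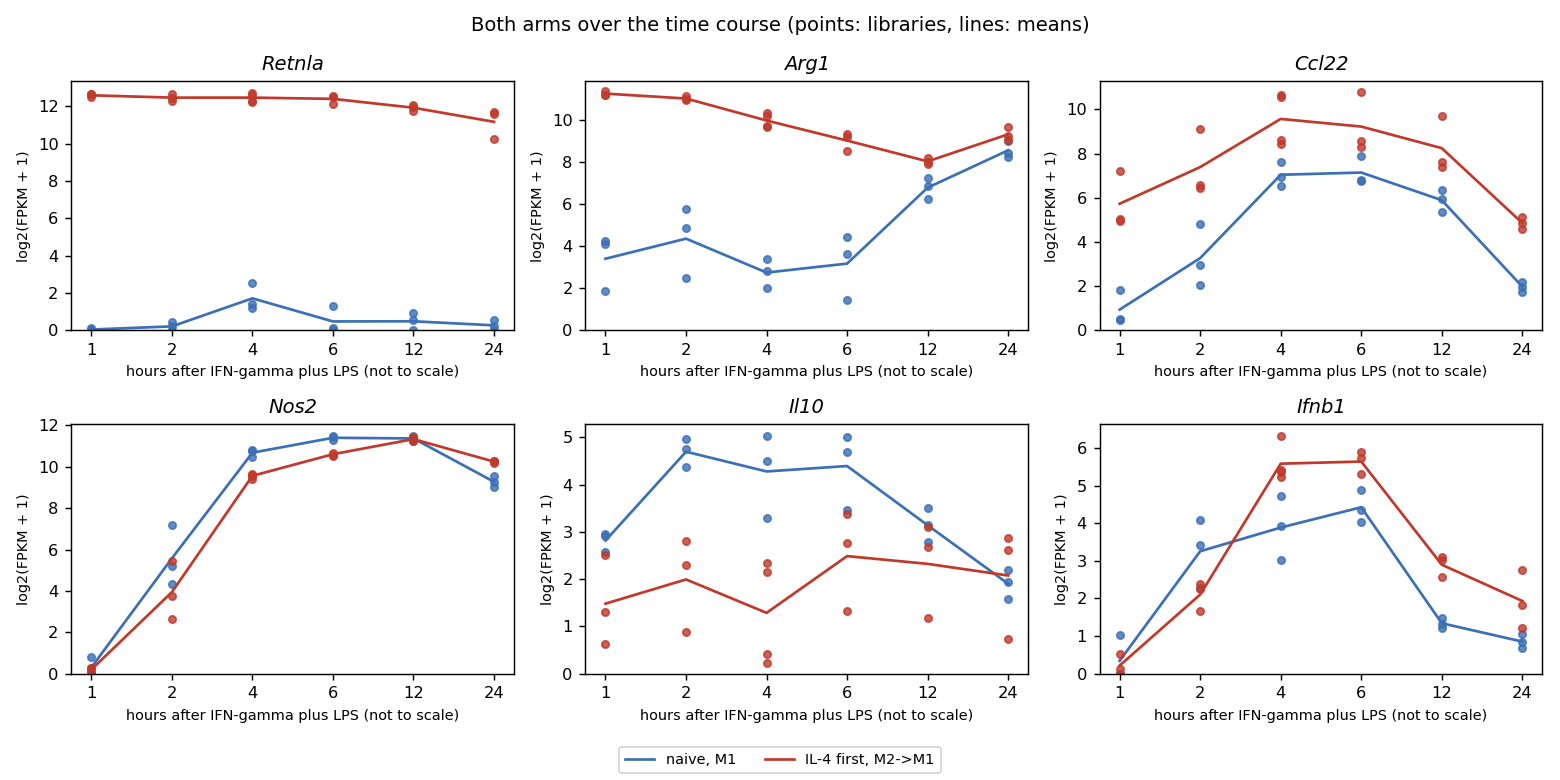
Points are libraries and lines join group means on the log2(FPKM + 1) scale for 6 genes, at 6 times from 1 to 24 h of IFN-γ plus LPS (horizontal axis not to scale), in naive cells (blue) and pretreated cells (red). Retnla is high in pretreated cells at all 6 times, Nos2 lies lower in pretreated cells at 4 h and is close to the naive level at 12 h, and Ifnb1 lies lower at 2 h and higher from 4 h on.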

How the data were processed

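Bulk RNA-seq of mouse BMDMs was analysed in 145 libraries. Per the methods and processing notes, the authors aligned reads to mm10 with TopHat2 2.0.14 and made FPKM with Cuffnorm 2.2.2; the deposited values were log10(FPKM + 1) of 8307 genes that reached 10 FPKM somewhere in the series. The file held no read counts, so the authors' count-based test could not be run, and depth and its precision are unknown. Values were turned into log2(FPKM + 1) and a mean per condition was fitted with limma 3.58.1 (R 4.3.3) over all 48 conditions (97 residual degrees of freedom, intensity trend); moderated tests were two-sided, with Benjamini-Hochberg adjusted p below 0.05 as the threshold. Folds are ratios of mean FPKM. Groups came from the labels, and columns were matched by their names, which count replicates from 0 where titles count from 1.

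The members and gene lists were chosen with earlier results of these data known. Named genes were the 12 largest calls each way with a mean of 20 FPKM in 1 group, no overlap between the groups and no predicted gene, with and without pretreated replicate 4; the 8 largest response differences each way; up to 4 members of each list and up to 2 against its majority; and 9 genes the study names. Some members that these rules name are not reported here. Collagen was called low below 2 on the log2 scale. Promoter windows were RefSeq's, 105 of 134 named genes having one. Alternatives were the pseudocount, filters on low values, scaling, the libraries fitted, limma's weights, each replicate left out and a replicate block. Figures were drawn with matplotlib 3.10.9. On simulated data with 50 genes changed at each size, the 4 h comparison over 8307 genes called 56% at a log2 change of 0.585 and 96% at a change of 1, and the response difference 26% and 80%. The changed genes were drawn only from those above a floor of expression in naive cells, and the noise was independent between libraries. The rates thus do not cover weakly expressed genes, the collagen split or libraries that resemble each other.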

Additional observations from a re-analysis of the deposited data

Results flagged for a closer look

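Among the 134 named genes, 5 had a pretreated library that stood apart from the other 3 by Dixon's test, where chance alone flags about 1 in 20 groups. Fen1 was lowest in replicate 4, at 16.0 FPKM against 19.9 to 20.4, and Prtn3 was highest there, at 0.591 with the others listed at 0. In replicate 3 Fh1 was highest at 41.0 FPKM, against 25.3 to 26.8, and Tlr2 at 59.9, against 37.8 to 40.8. Sdhc was lowest in replicate 2, at 80.8 FPKM against 104 to 105. The 5 were spread as 0, 1, 2 and 2 over replicates 1 to 4.

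A difference in the change from the starting group to 4 h, tested as an interaction with limma, was called in 843 genes. The named ones with a more positive change in pretreated cells were Fos (2.48 on the log2 scale), Slc40a1 (2.40), Lpar6 (2.01), Ccr2 (1.97), Maf (1.91), Sema4a (1.91), Vcan (1.80) and Fam107b (1.79). Those with a more negative one were Socs1 (-4.63), Ccl8 (-4.41), Slc7a2 (-4.17), Cish (-4.08), Saa3 (-3.88), Ccl7 (-3.08), Adora2b (-3.08) and Tarm1 (-2.98).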

How the results depend on the processing

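The 4 h comparison called 2074 genes and between 1499 and 2010 without 1 library, the lowest without naive replicate 3. The response difference called 843, and between 663 and 850. The start comparison called between 1947 and 2533 without 1 library, the washout comparison between 4302 and 4605, the naive response (4 h M1 against 0 h M0, 5228 genes) between 4847 and 5042, and the culture comparison (136 genes) between 45 and 177. The lists together held 239 calls, and 235 without pretreated replicate 4. With upper-quartile scaling the naive response had 1831 higher and 4002 lower genes, against 2935 and 2293, as the median of all genes moved from 0.09 to -0.30. That scaling also raised the ribosomal calls from 3 to 7 and the lysosome calls upward from 4 to 7. With arrayWeights the 4 h comparison called 3719 genes and the response difference 2199. With the spread taken only from the libraries of each contrast, they called 1544 and 628. Of these, 1356 and 509 had been called in the same direction in the main fit. With pretreated replicates 1 and 2 averaged as 1 library, the numbers were 1761 and 719, and with a collagen term over 13 libraries 2726 and 1134; both were chosen after seeing the data, as were the fits that left out a library of the other contrasts.

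With the replicate number as a replicate block, the 4 h comparison called 2814 genes, the response difference 1409, and the culture comparison 342; with the block and without pretreated replicate 4, 2846 and 1365. Same-numbered libraries of both groups had correlated deviations of 0.36, -0.43 and 0.32 for numbers 1 to 3, no source ties the numbers, and they were not read as paired. Other pairs correlated as well: naive replicate 1 with pretreated replicate 2 at 0.58 and with replicates 3 and 4 at -0.41 and -0.37, naive replicate 2 with replicates 3 and 4 at 0.28 and 0.28, and naive replicate 3 with replicate 4 at 0.26. Over all pairs of a naive and a pretreated library, those within a collagen set had positive values and those across the sets negative ones. Deviations were taken from the group mean and so are not independent within a group. The replicate block set low-collagen pretreated replicate 2 with high-collagen naive replicate 2. In 32 of 48 conditions replicate 1 was low and every other replicate high in collagen.

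Of 134 named genes, 118 passed the test at 4 h, and 95 of these did so in the same direction under each of 20 alternatives. Values that changed sign belonged to genes that did not pass the test at 4 h: Pparg with arrayWeights (-0.0311), Ccr2 without pretreated replicate 2 (from -0.00738 to 0.384 over the fits without 1 library), Maf without naive replicate 1 (from -0.358 to 0.0774) and Cish without naive replicate 2 (from -0.376 to 0.171). The unknown depth limits what can be said of genes near 0 FPKM, and the cause of the changed counts was not tested.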
